A study of Homo sapiens with 12 samples.

Results

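The genes described here serve DNA replication and the passage from G1 into S phase. The set is a list of 54 named genes of origin licensing, the replication fork, nucleotide supply and S-phase entry. Of these, 53 were matched to a row among the 63677 genes of the count table, and all 53 had enough reads to be tested, beside 17730 tested genes in all. The expression of UHRF1, the remaining gene, was not analysed here, and its 3 promoter windows are among those searched below. The study used HCT116, an epithelial cell line from a human colon carcinoma, and asked what siRNAs to the RNA of NFYA do to gene expression. There were 6 groups of 2 libraries. Mock cultures went through transfection with no siRNA, siControl cultures received a non-targeting siRNA, siTotal1 and siTotal2 cultures each received 1 of 2 siRNAs to every NFYA transcript, and siLong1 and siLong2 cultures each received 1 of 2 siRNAs to NFYA transcripts with the long 3′ untranslated region. Every culture was seeded at 25000 cells per well and collected 72 h after transfection, and every siRNA was given at 62.5 nM. Per the design text these were biological duplicates in 1 cell line. A p-value below sets a difference against the spread between duplicate cultures, in the main fit estimated over all 6 groups. Except where sequences are taken as replicates, it does not cover the spread between siRNA sequences.

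Before a cell copies its genome, the origin recognition complex, CDC6 and CDT1 load rings of MCM2 to MCM7 onto DNA, a step called licensing. At the start of S phase the kinase made of CDC7 and DBF4, together with cyclin-dependent kinases, turns those rings into active helicases with CDC45 and the GINS complex, and primase and the polymerases follow. Many of the genes are transcribed in a wave at the G1/S boundary under E2F factors, and several carry CCAAT boxes. NF-Y, of which NFYA is the sequence-specific subunit, binds CCAAT boxes.

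The 4 designed siRNAs to NFYA are shown because the siTotal and siLong groups are defined by them. Each is the sense strand, and capitals mark the bases that pair with guide bases 2 to 8 (the seed). The labels list 2 sequences per target and do not say which is number 1.
siTotal, first listed: acuagaggcagAAGGGAAa
siTotal, second listed: uggugaaggugGACGAUUu
siLong, first listed: agugaucauugUAGGGUAa
siLong, second listed: ggucauuccuuUAGCAUCa

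The promoters of the members are shown through the CCAAT word that NF-Y is known to bind, for the 8 most abundant members that hold one. Each line gives 25 bases of RefSeq sequence on build GRCh38.p14 with the word in capitals, and the letters are those of the strand named.
RRM2, chr2:10122663-10122687, plus strand: ggcaccaaagCCAATgggaagggcc
MCM7, chr7:100101385-100101409, minus strand: acgtttcgcgCCAATttcggttggc
MCM3, chr6:52284812-52284836, minus strand: gagaactcagCCAATcataatgctt
PCNA, chr20:5126633-5126657, minus strand: gtgcgattagCCAATgggagctccc
TK1, chr17:78187084-78187108, plus strand: ggcgtgctggCCAATcacgagccgg
RPA1, chr17:1830001-1830025, plus strand: acttctcgggCCAATaactgcgcag
RRM1, chr11:4094647-4094671, plus strand: atgtccatatCCAATggggcccatg
MCM6, chr2:135876487-135876511, plus strand: acggccggaaCCAATcgtgacacag
The printed strand is that of the gene except in TK1 and MCM6, which are transcribed from the minus strand. The printed word is the one nearest any transcription start of the gene, among words with room for the 25 bases. Short distances follow from that choice. The centre of the printed word lay before that start in 6 of the 8: by 82 bases in MCM3, 64 in RRM2, 56 in MCM6, 44 in TK1, 26 in RRM1 and 23 in PCNA. It lay at the start itself in MCM7 (0 bases) and after it in RPA1 (-8 bases before the start).

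Library totals ran from 35604197 to 49746637 reads. NFYA itself was counted first as the check of the labels. Against siControl it fell in siTotal1 (log2 change -0.28), in siTotal2 (-0.32) and in siLong1 (-0.29), and rose in the libraries labelled siLong2 (0.28), so the gene-level count went against that label. Counts per gene cannot single out the long transcript form, and every siLong value below averages in the libraries labelled siLong2. NFYB and NFYC, the other subunits of NF-Y, rose by 0.77 and 0.72 in siTotal against siControl. Of 8 colon epithelial markers, 5 were above 1 CPM (counts per gene scaled to the effective library size), namely EPCAM, CDH1, KRT8, KRT18 and KRT19, and VIL1, CEACAM5 and LGALS4 were not. Their summed level was 3317 to 3637 CPM in the mock, siControl and siTotal libraries, 5373 to 5376 CPM in siLong1 and 4960 to 5091 CPM in those labelled siLong2. The marker level moved with the siLong groups, and its part in the results below was not tested. Of 6 fibroblast markers 1 was above 1 CPM (COL1A1), and of 5 blood and 3 endothelial markers 0 were.

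RNA of the replication genes was lower in siLong than in mock cultures when the siRNA sequences were averaged. Of 53 members, 53 fell and 0 rose in siLong against mock, with log2 fold changes from -0.89 for PRIM1, the catalytic subunit of primase (a change of -46.1%), to -0.12 for CCNE1, cyclin E1 (-7.87%). RNA came from whole cultures, so fewer cells in S phase and less RNA per cell cannot be told apart. The median of the members was -0.51, and the median of all tested genes was -0.015. A gene was called at a Benjamini-Hochberg adjusted p under 0.05 in edgeR's quasi-likelihood test, and 26.4% of all tested genes were called lower and 24.4% higher in that comparison. With siLong1 alone 45 of 53 were called lower than mock (26.1% of all tested genes), and the changes of POLD3 and CCNE1 were positive but did not pass the test. MCM2, MCM3, MCM5, DBF4, RFC5 and LIG1 did not pass it in siLong1 either. With the libraries labelled siLong2 alone 51 were called lower (4439 of the 17730 tested genes), and RPA2 and CCNE2 did not pass. For the average over both sequences, the count of 0 higher was the same at an unadjusted p under 0.05 and with DESeq2. Every class went the same way, with 11 of 11 licensing genes, 9 of 9 firing genes, 8 of 8 polymerase and primase genes, 11 of 11 clamp, clamp loader, RPA and Okazaki genes, 5 of 5 nucleotide supply genes, 5 of 5 S-phase entry genes and 4 of 4 chromatin genes lower. The CCNE1 call was the least stable: it was lost in 5 of the other settings tried.

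Against siControl, 43 members fell and 5 rose in siLong, where 28.4% of all tested genes were called lower and 25.1% higher. The median of the members was -0.33, and that of all genes was -0.012. The largest fall was that of RRM2, the regulated subunit of ribonucleotide reductase (-0.96, a change of -48.6%). The 5 that rose were GINS1, PCNA, LIG1, RFC5 and MCM3, while CDT1, MCM2, MCM6, DBF4 and POLD3 did not pass the test. In another setting an siRNA sequence counted as 1 replicate, and mock and siControl as the replicates of the control. There edgeR called 0 members lower in siLong after adjustment, and 0 of all 19088 genes tested. At an unadjusted p under 0.05 the counts were 27 members and 947 of all genes. DESeq2, an alternative added after the data were seen, called 9 members lower, and 140 of 15667 genes.

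Taken library by library, the mean log2 level of the 53 members, relative to each gene's own mean over the 12 libraries, was 0.213 and 0.211 in mock and 0.072 and 0.052 in siControl. In siTotal1 it was 0.154 and 0.073, and in siTotal2 0.168 and 0.132. It was -0.218 and -0.263 in siLong1 and -0.295 and -0.298 in the libraries labelled siLong2. All 4 siLong libraries were below the other 8, while the siTotal libraries lay between the 2 kinds of control. Gene by gene, the 4 siLong libraries were all below the 4 mock and siControl libraries for 35 members and all above them for 0, where 12.6% of all tested genes were all below and 11.7% all above. For siLong1 alone the count below was 36 (26.8% of all tested genes), and for the libraries labelled siLong2 it was 47 (26.6%).

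**Figure D1:**
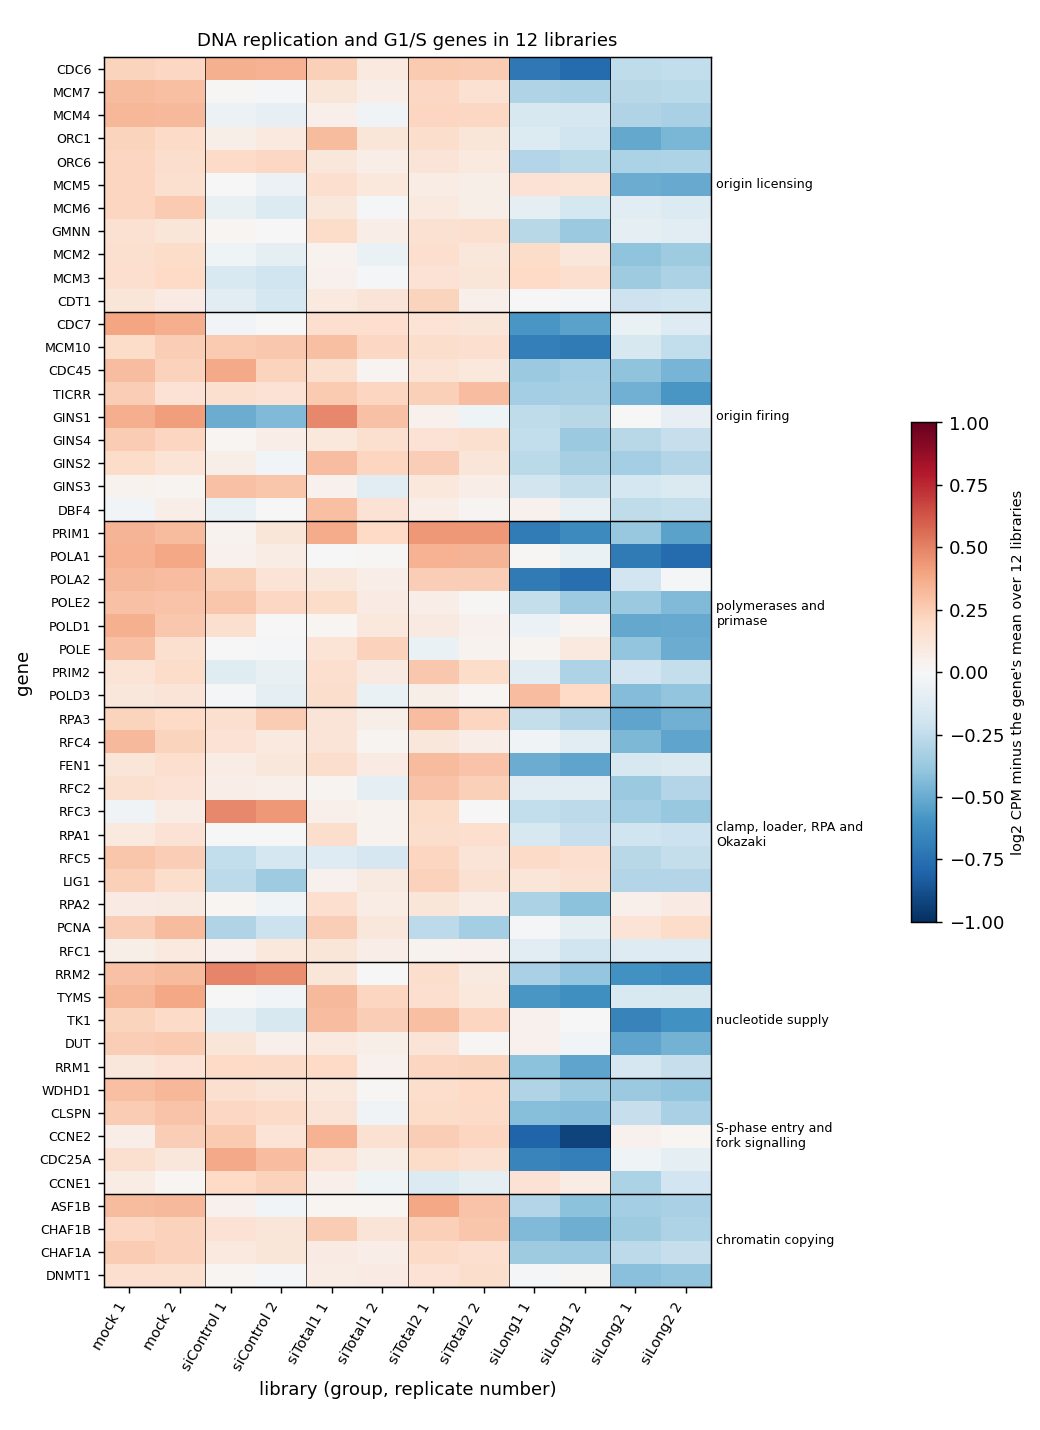
Log2 CPM of each of the 53 genes minus its mean over 12 libraries, with genes in rows grouped by role and libraries in columns. The 4 siLong columns are mostly blue (lower), the 2 mock columns mostly red (higher), and siLong1 and siLong2 are darkest at different genes.

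The siTotal groups showed no shared direction against the controls. Against siControl 27 members rose and 8 fell (22.0% of all tested genes were called higher and 22.2% lower), with a member median of 0.10 beside 0.002 for all genes. Against mock 1 rose and 24 fell (16.6% higher and 14.2% lower among all genes), with a median of -0.09 beside 0.003. The 8 that fell against siControl were RFC3, RRM2, CCNE1, GINS3, CDC25A, CDC45, POLE2 and CDC6, and the 1 that rose against mock was DBF4, a call made in some settings only. With either siControl library left out, fewer members were called higher than siControl, and fewer of all tested genes as well. With each siRNA sequence as 1 replicate 0 members were higher and 0 lower with edgeR, at an unadjusted p under 0.05 as well, and with DESeq2. With sequences as replicates, edgeR called 0 of 19088 genes higher and 0 lower (276 and 147 at an unadjusted p under 0.05). DESeq2 called 6 of 16355 genes higher and 1 lower. The siTotal and siLong comparisons share the same control libraries and are not independent of each other. All 4 siTotal libraries were below both controls for 4 members (ORC6, CDC45, POLE2 and RRM2), against 5.52% of all tested genes, and above both for 0 (6.35% of all genes). The share of members below was therefore near that of all genes. Without siControl replicate 2 the count below was 7, and without siTotal1 replicate 2 the count above was 5. Shares of all tested genes were not counted with these libraries left out.

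The controls differed from each other over the same genes. In mock against siControl 31 members were higher and 6 lower, where 19.5% of all tested genes were called higher and 20.3% lower, and the member median was 0.14. GINS1, a subunit of the GINS helicase cofactor, was 1.82-fold higher in mock (log2 difference 0.86), and RFC3, a clamp loader subunit, was lower (-0.44). In siTotal 13 members passed the test in opposite directions, lower than mock and higher than siControl: MCM2, MCM3, MCM4, MCM5, MCM6, MCM7, GINS1, CDC7, POLA1, PCNA, RFC5, TYMS and ASF1B. In siLong 5 did so, MCM3, GINS1, PCNA, RFC5 and LIG1. Opposite calls were not counted over all tested genes, so whether these counts are particular to the members was not tested. With mock and siControl joined as 1 control group, 0 members were called higher and 4 lower in siTotal (5 higher at an unadjusted p under 0.05), where 7.88% of all tested genes were called higher and 7.18% lower, so the share of members lower was near that of all genes. In siLong 0 were higher and 44 lower (0 higher at an unadjusted p under 0.05), where 17.5% of all tested genes were called higher and 20.8% lower.

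**Figure D2:**
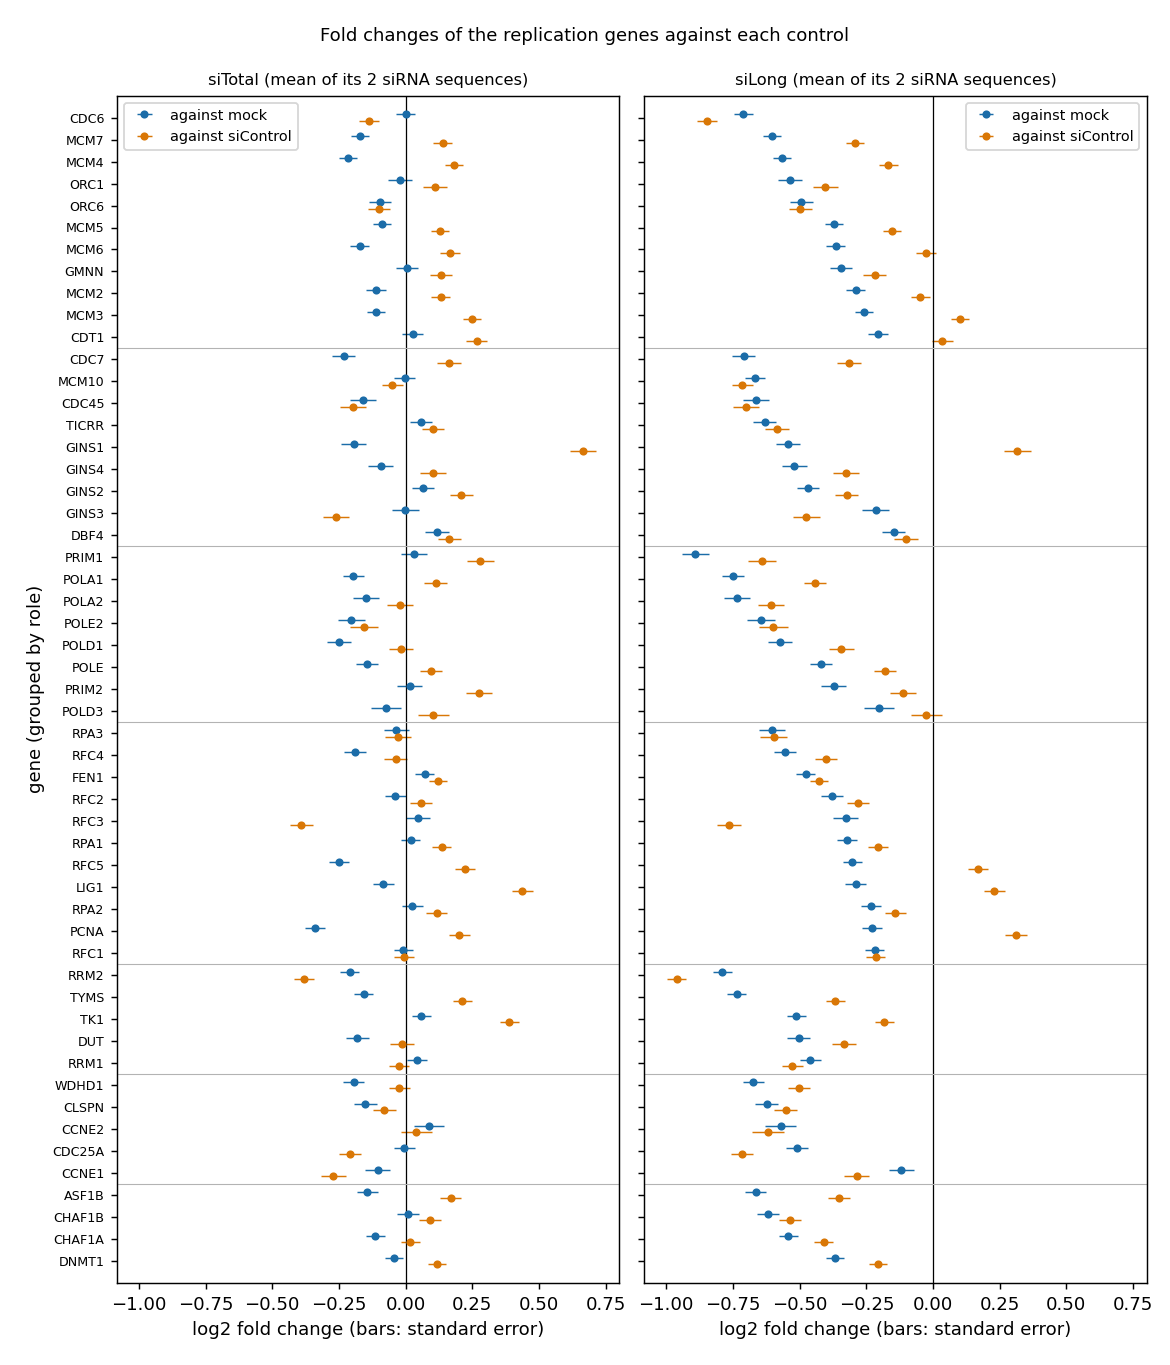
Log2 fold changes of the 53 genes in siTotal (left) and siLong (right), against mock (blue) and against siControl (orange), with standard errors from the edgeR fit. In siLong every blue point is below 0, and in siTotal the blue and orange points of many genes lie on opposite sides of 0.

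The direct comparison of siTotal with siLong uses no control library. There 50 members were higher in siTotal and 1 was lower, where 28.1% of all tested genes were called higher and 25.3% lower, with a member median of 0.40 beside 0.011 for all genes. PRIM1 differed by 0.92 and CDC6 by 0.71. PCNA, the sliding clamp, was the 1 lower member (-0.11), and CCNE1 and RFC5 did not pass the test. With each siRNA sequence as 1 replicate, 0 were called in either direction with edgeR (25 higher and 0 lower at an unadjusted p under 0.05). DESeq2 called 3 higher. Over all 19088 genes edgeR also called 0 in either direction (934 higher and 782 lower at an unadjusted p under 0.05). DESeq2 called 107 of 13605 genes higher and 66 lower.

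In origin licensing, falls in siLong against mock ran from 0.21 for CDT1 to 0.71 for CDC6. CDC6 (ENSG00000094804, chromosome 17, 40287633 to 40304657 on GRCh38, plus strand), the ATPase that brings the MCM ring to origins, measured 180.0 and 178 CPM in mock, 197 and 196 in siControl, 182 and 165 in siTotal1, 185 and 184 in siTotal2, 94.2 and 90.3 in siLong1 and 129 and 130.1 in those labelled siLong2. The siLong1 libraries held the lowest values and those labelled siLong2 the next, with no overlap with the other 8. Against mock CDC6 fell by 0.71 in siLong (SE 0.04, adjusted p = 3.2e-18), and in siTotal it did not pass the test (adjusted p = 1). CDT1 (ENSG00000167513), the partner of CDC6 in loading, had the smallest change of the class, with 141 and 138 CPM in mock, 120.5 and 115 in siControl, 139 and 142 in siTotal1, 152 and 135 in siTotal2, 130.5 and 128 in siLong1 and 113 in both of those labelled siLong2. Its siLong1 libraries lay between mock and siControl. CDT1 fell by 0.21 in siLong against mock (SE 0.04, adjusted p = 3.1e-05), and against siControl its change was 0.035 (adjusted p = 0.49). ORC1 and ORC6, subunits of the origin recognition complex, fell by 0.54 and 0.49 in siLong against mock. GMNN, which encodes geminin, the inhibitor of CDT1, fell by 0.35.

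The 6 ring subunits behaved differently from one another. MCM2 (ENSG00000073111) measured 299 and 304 CPM in mock, 259.7 and 249.9 in siControl, 274 and 256 in siTotal1, 299 and 289 in siTotal2, 302 and 289 in siLong1 and 202 and 209 in those labelled siLong2. MCM2 in siLong1 overlapped with mock while the libraries labelled siLong2 were below every other library. Exons of genes on the opposite strand overlap 23.6% of the MCM2 exons, so its counts are uncertain where strand was not used in counting. MCM3 (ENSG00000112118) measured 439.5 and 448 CPM in mock, 351 and 340.5 in siControl, 402 and 386 in siTotal1, 432 and 426 in siTotal2, 449 and 438 in siLong1 and 306 and 314 in those labelled siLong2. Its siLong1 libraries overlapped with mock, siControl was lower, and the libraries labelled siLong2 were the lowest. MCM5 (ENSG00000100297) measured 267 and 257 CPM in mock, 229 and 221 in siControl, 257 and 246 in siTotal1, 242 and 239 in siTotal2, 253 in both siLong1 libraries and 162 and 161 in those labelled siLong2. The libraries labelled siLong2 were below all 10 others, and siControl was the next lowest. In siLong against mock MCM2, MCM3 and MCM5 fell by 0.29, 0.26 and 0.37.

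MCM4 (ENSG00000104738), which holds part of the ring's helicase activity, measured 498 and 494 CPM in mock, 379 and 374 in siControl, 410.0 and 386 in siTotal1, 458 and 456 in siTotal2, 354 and 352 in siLong1 and 321 and 316 in those labelled siLong2. Mock was highest and all 4 siLong libraries were lowest. MCM6 (ENSG00000076003) measured 269 and 277 CPM in mock, 220.1 and 211 in siControl, 251 and 228 in siTotal1, 248 and 242 in siTotal2, 216 and 205 in siLong1 and 215 and 211 in those labelled siLong2. Here siControl and the siLong groups overlapped, and mock was above every other library. MCM7 (ENSG00000166508) measured 584 and 579 CPM in mock, 474 and 464 in siControl, 511 and 492 in siTotal1, 542 and 522 in siTotal2, 380.4 and 377 in siLong1 and 387 and 389 in those labelled siLong2. All 4 siLong libraries were below all 8 others. In siLong against mock MCM4 fell by 0.56 (SE 0.03, adjusted p = 1.2e-16), MCM6 by 0.36 (SE 0.04, adjusted p = 1.3e-10) and MCM7 by 0.60 (SE 0.03, adjusted p = 1.8e-17). Against siControl the changes of the ring subunits in siLong were smaller, with -0.17 for MCM4, -0.29 for MCM7, -0.025 for MCM6, which did not pass the test, and a rise of 0.10 for MCM3 (adjusted p = 0.012). In siTotal all 6 were lower than mock, by 0.089 (MCM5) to 0.22 (MCM4), and higher than siControl, by 0.13 (MCM2 and MCM5) to 0.25 (MCM3).

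Among the firing factors, CDC7 (ENSG00000097046), the kinase that phosphorylates the loaded ring, measured 56.6 and 55.3 CPM in mock, 42.2 and 43.0 in siControl, 48.3 in both siTotal1 libraries, 47.2 and 46.8 in siTotal2, 28.7 and 29.6 in siLong1 and 41.0 and 39.4 in those labelled siLong2. Mock was highest and siLong1 lowest, and the libraries labelled siLong2 lay just below siControl. CDC7 fell by 0.71 in siLong against mock (SE 0.04, adjusted p = 3.8e-16) and by 0.32 against siControl. DBF4 (ENSG00000006634), the activating subunit of CDC7, changed least in the class, with 80.3 and 85.7 CPM in mock, 78.4 and 82.2 in siControl, 101 and 90.6 in siTotal1, 85.9 and 83.4 in siTotal2, 84.5 and 77.6 in siLong1 and 68.9 and 69.6 in those labelled siLong2. The libraries labelled siLong2 were the lowest, and siLong1 overlapped with both controls. DBF4 fell by 0.15 in siLong against mock (SE 0.04, adjusted p = 0.0056), and against siControl its change was -0.10 (adjusted p = 0.059).

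GINS1 (ENSG00000101003) had the largest gap between the controls of any member, with 69.7 and 72.7 CPM in mock, 38.4 and 40.01 in siControl, 75.8 and 66.7 in siTotal1, 56.0 and 52.6 in siTotal2, 45.6 and 44.8 in siLong1 and 54.3 and 51.2 in those labelled siLong2. The siControl libraries were below all 10 others. GINS1 fell by 0.54 in siLong against mock (SE 0.05, adjusted p = 2.8e-12) and rose by 0.32 against siControl (SE 0.05, adjusted p = 1.8e-06). In the other GINS subunits mock minus siControl was smaller, at 0.14 for GINS2, -0.26 for GINS3 and 0.19 for GINS4. In siLong against mock GINS2, GINS3 and GINS4 fell by 0.47, 0.21 and 0.52, and exons on the opposite strand overlap 10.9% of GINS3 and 23.6% of GINS4. MCM10, CDC45 and TICRR, which help to assemble or open the helicase, fell by 0.67, 0.66 and 0.63 against mock and by 0.71, 0.70 and 0.58 against siControl, so for these 3 the choice of control made little difference.

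The polymerases and primase had a median of -0.61 in siLong against mock. PRIM1 (ENSG00000198056), which makes the RNA primers, measured 56.7 and 55.5 CPM in mock, 45.8 and 48.6 in siControl, 57.7 and 51.4 in siTotal1, 60.4 and 60.2 in siTotal2, 27.5 and 28.7 in siLong1 and 34.2 and 30.9 in those labelled siLong2. The 4 siLong libraries were far below the other 8, and siTotal2 was highest. PRIM1 fell by 0.89 in siLong against mock (SE 0.05, adjusted p = 2.9e-17) and by 0.64 against siControl (SE 0.05, adjusted p = 3.1e-13), and rose by 0.28 in siTotal against siControl (adjusted p = 1.3e-05). POLA1 (ENSG00000101868), the catalytic subunit of the polymerase that works with primase, measured 74.6 and 76.4 CPM in mock, 60.3 and 61.6 in siControl, 58.2 and 58.9 in siTotal1, 74.3 and 74.0 in siTotal2, 59.0 and 55.9 in siLong1 and 35.8 and 34.3 in those labelled siLong2. The libraries labelled siLong2 stood apart below all others, and siLong1 was at the level of siTotal1. POLA1 fell by 0.75 in siLong against mock (SE 0.04, adjusted p = 1.3e-17). POLD3 (ENSG00000077514), an accessory subunit of polymerase delta, changed least, with 31.3 and 31.7 CPM in mock, 28.6 and 27.1 in siControl, 32.6 and 27.7 in siTotal1, 30.2 and 29.3 in siTotal2, 35.9 and 33.2 in siLong1 and 21.4 and 22.1 in those labelled siLong2. Its siLong1 libraries were the highest of all and those labelled siLong2 the lowest. POLD3 fell by 0.20 in siLong against mock (SE 0.06, adjusted p = 0.0029), an average over siLong1 libraries above mock and siLong2 libraries below it. POLA2, the partner of POLA1, fell by 0.74 against mock and PRIM2, the partner of PRIM1, by 0.37. POLD1 and POLE, the catalytic subunits of polymerases delta and epsilon, fell by 0.57 and 0.42, and POLE2 by 0.65.

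Clamp, clamp loader, single-strand binding and Okazaki genes had a median of -0.32 in siLong against mock. PCNA (ENSG00000132646), the clamp that holds polymerases on DNA, measured 360.4 and 379 CPM in mock, 246 and 262 in siControl, 361 and 329.5 in siTotal1, 253 and 241 in siTotal2, 300.2 and 284 in siLong1 and 334 and 346 in those labelled siLong2. The siControl and siTotal2 libraries were lowest and siLong1 next, while siTotal1 and the libraries labelled siLong2 overlapped each other, and 1 siTotal1 library lay within the range of mock. PCNA fell by 0.23 in siLong against mock (SE 0.04, adjusted p = 6.7e-06) and rose by 0.31 against siControl (SE 0.04, adjusted p = 3.8e-08). RFC5 (ENSG00000111445), a subunit of the clamp loader, measured 151 and 148 CPM in mock, 105 and 111 in siControl, 114 and 111 in siTotal1, 145 and 137 in siTotal2, 143 and 140.2 in siLong1 and 103 and 106 in those labelled siLong2. Mock, siTotal2 and siLong1 were high, and siControl, siTotal1 and the libraries labelled siLong2 were low. Exons on the opposite strand overlap 10.6% of RFC5. LIG1 (ENSG00000105486), which seals Okazaki fragments, measured 121 and 116 CPM in mock, 85.4 and 80.2 in siControl, 105 and 109 in siTotal1, 120.5 and 114 in siTotal2, 112 and 114 in siLong1 and 83.8 and 83.5 in those labelled siLong2. The siControl libraries and those labelled siLong2 were low and the other 8 high. In siLong RFC5 and LIG1 fell by 0.30 and 0.29 against mock and rose by 0.17 and 0.23 against siControl.

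RPA3 (ENSG00000106399), the smallest subunit of the single-strand binding protein RPA, had the largest fall of the class, with 43.4 and 42.6 CPM in mock, 41.5 and 44.2 in siControl, 40.5 and 38.7 in siTotal1, 46.0 and 42.9 in siTotal2, 31.4 and 30.1 in siLong1 and 25.6 and 26.5 in those labelled siLong2. All 4 siLong libraries were below the other 8. RPA3 fell by 0.60 in siLong against mock (SE 0.05, adjusted p = 4.5e-13) and by 0.60 against siControl. RFC1 (ENSG00000035928), the large subunit of the clamp loader, had the smallest change of the class, with 151 and 156 CPM in mock, 149.6 and 156 in siControl, 158 and 152 in siTotal1, 149 and 149.9 in siTotal2, 135 and 126 in siLong1 and 133 in both of those labelled siLong2. Its 4 siLong libraries were also below the other 8, by less. RFC1 fell by 0.22 in siLong against mock (SE 0.04, adjusted p = 3.5e-06). RFC2, RFC3 and RFC4 fell by 0.38, 0.33 and 0.55 against mock, RPA1 and RPA2 by 0.32 and 0.23, and FEN1, which trims the flaps of Okazaki fragments, by 0.48. RFC3 was the 1 member of this class with a far larger fall against siControl (-0.77) than against mock.

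Genes of nucleotide supply all fell in siLong against both controls when the sequences were averaged. In siLong1 alone TK1 was higher than siControl (0.15), and in the libraries labelled siLong2 it was lower (-0.52). RRM2 (ENSG00000171848), the subunit of ribonucleotide reductase whose level limits deoxynucleotide synthesis, measured 593 and 604 CPM in mock, 678 and 669 in siControl, 525 and 483 in siTotal1, 546 and 516 in siTotal2, 388 and 369.8 in siLong1 and 318 and 314 in those labelled siLong2. RRM2 was ordered with siControl highest, mock next, siTotal below both and siLong lowest, with no overlap between these. RRM2 fell by 0.79 in siLong against mock (SE 0.04, adjusted p = 1.1e-19), and in siTotal by 0.21 against mock (adjusted p = 2.2e-05) and by 0.38 against siControl (adjusted p = 4.5e-11). RRM1 (ENSG00000167325), the catalytic subunit of the same enzyme, changed least of the class, with 260.2 and 265 CPM in mock, 276 and 274 in siControl, 275 and 248 in siTotal1, 279 and 280.0 in siTotal2, 181 and 167 in siLong1 and 214 and 205 in those labelled siLong2. Only the siLong libraries stood apart. RRM1 fell by 0.46 in siLong against mock (SE 0.04, adjusted p = 2.4e-12), and in siTotal its changes of 0.043 against mock and -0.024 against siControl did not pass the test. TYMS (ENSG00000176890), thymidylate synthase, measured 340.4 and 352 CPM in mock, 270.2 and 265 in siControl, 337 and 312 in siTotal1, 303 and 291 in siTotal2, 180.3 and 176 in siLong1 and 243 and 242 in those labelled siLong2. The siLong1 libraries were lowest, and those labelled siLong2 lay just below siControl. TYMS fell by 0.74 in siLong against mock (SE 0.03, adjusted p = 3e-19), but 46.6% of its exons overlap exons on the opposite strand, and its counts are uncertain. TK1, thymidine kinase, fell by 0.51 and DUT, which removes dUTP, by 0.50, with 14.5% of DUT exons overlapped on the opposite strand.

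Cyclins E and their neighbours differed from each other. WDHD1 (ENSG00000198554), which couples the helicase to polymerase alpha, had the largest fall of the class, with 86.5 and 88.2 CPM in mock, 78.3 and 76.8 in siControl, 75.4 and 70.6 in siTotal1, 79.1 and 80.6 in siTotal2, 57.0 and 54.9 in siLong1 and 54.2 and 53.2 in those labelled siLong2. All 4 siLong libraries were below the other 8, and siLong1 and siLong2 were close. WDHD1 fell by 0.67 in siLong against mock (SE 0.04, adjusted p = 1.2e-16). CCNE1 (ENSG00000105173), the cyclin partner of CDK2 at S-phase entry, changed least, with 47.6 and 46.0 CPM in mock, 52.0 and 53.2 in siControl, 47.1 and 43.9 in siTotal1, 41.2 and 42.3 in siTotal2, 50.2 and 47.6 in siLong1 and 36.4 and 39.7 in those labelled siLong2. The siControl libraries were highest and those labelled siLong2 lowest, and siLong1 was at or just above mock. CCNE1 fell by 0.12 in siLong against mock (SE 0.05, adjusted p = 0.033). CCNE2 (ENSG00000175305), cyclin E2, measured 33.8 and 38.2 CPM in mock, 38.6 and 35.6 in siControl, 41.0 and 35.9 in siTotal1, 38.2 and 37.5 in siTotal2, 18.5 and 16.9 in siLong1 and 33.2 and 32.7 in those labelled siLong2. The siLong1 libraries stood far below the rest, with a mean of 17.7 CPM (SD 1.13, n = 2), beside 33.0 CPM (SD 0.391, n = 2) in the libraries labelled siLong2. Exons on the opposite strand overlap 37.1% of CCNE2, so its counts are uncertain. CCNE2 fell by 0.57 in siLong against mock (SE 0.06, adjusted p = 7.5e-10). CDC25A, the phosphatase that activates CDK2, fell by 0.51 and CLSPN, which encodes the fork-checkpoint adaptor claspin, by 0.62.

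Genes that rebuild chromatin behind the fork also fell. ASF1B (ENSG00000105011), a chaperone of new histones, measured 123 and 124 CPM in mock, 102 and 96.9 in siControl, 100.0 and 100.3 in siTotal1, 129 and 120.2 in siTotal2, 80.4 and 74.3 in siLong1 and 77.9 and 78.6 in those labelled siLong2. All 4 siLong libraries were lowest, and siTotal1 lay with siControl while siTotal2 lay with mock. ASF1B fell by 0.66 in siLong against mock (SE 0.04, adjusted p = 9.8e-17). DNMT1 (ENSG00000130816), the methyltransferase that copies DNA methylation, changed least, with 351 and 349.5 CPM in mock, 317 and 309 in siControl, 329 and 332 in siTotal1, 345 and 354 in siTotal2, 310.3 and 316 in siLong1 and 234 and 237 in those labelled siLong2. Only the libraries labelled siLong2 stood apart, and siLong1 was level with siControl. DNMT1 fell by 0.37 in siLong against mock (SE 0.03, adjusted p = 6e-12). CHAF1A and CHAF1B, subunits of the chromatin assembly factor CAF-1, fell by 0.54 and 0.62.

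**Figure D3:**
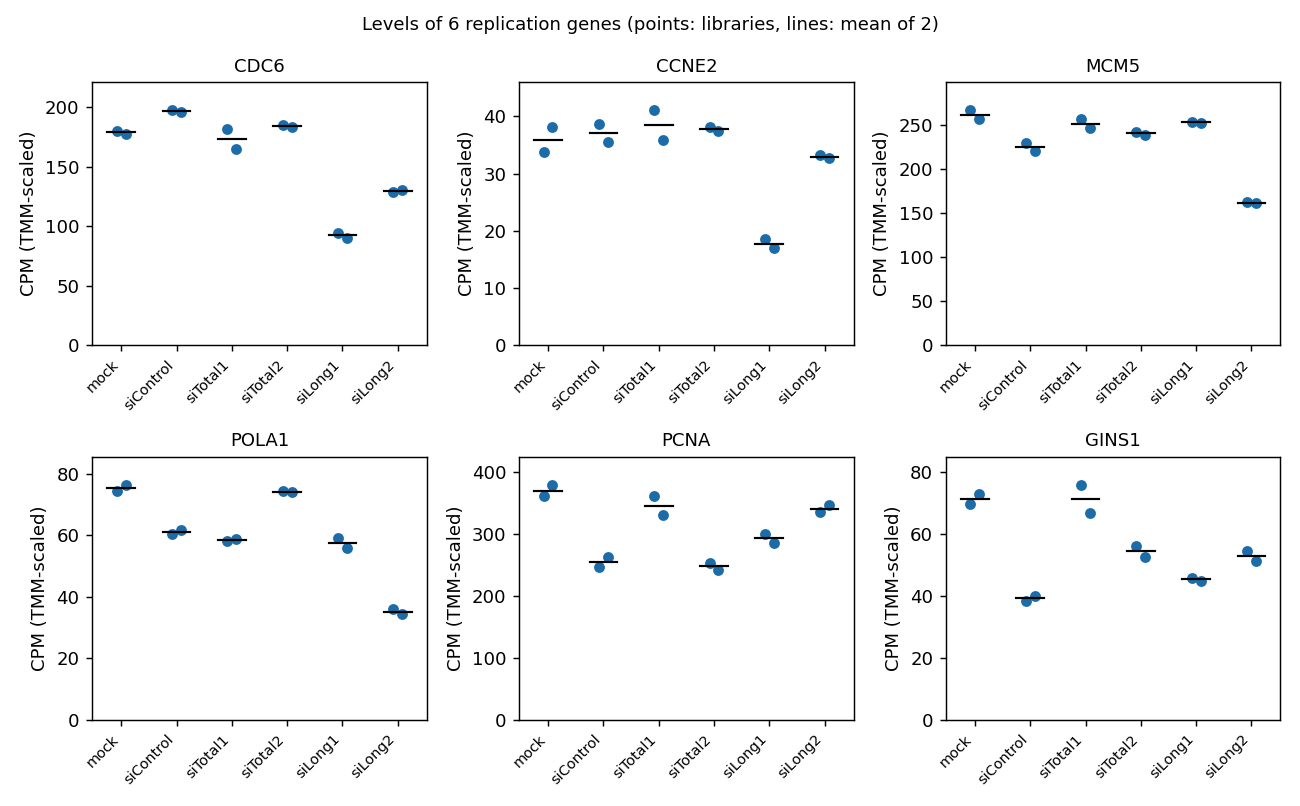
Levels (TMM-scaled CPM, from 0) of CDC6, CCNE2, MCM5, POLA1, PCNA and GINS1 in the 12 libraries, as points with the mean of the 2 libraries of a group as a line. CDC6 and CCNE2 are lowest in siLong1, MCM5 and POLA1 in siLong2, and GINS1 in siControl, while PCNA is lowest in siControl and siTotal2.

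The mean level of the set was lower with both siLong sequences than in mock and siControl, but the genes that were lowest differed between them. Members called with each sequence alone were counted against mock only. In siLong1 against siLong2, 22 members were higher and 17 lower in siLong1, where 26.7% of all tested genes were called higher and 27.0% lower, and 14 did not pass the test. Lower in siLong1 were CCNE2 (log2 difference -0.90, SE 0.07, adjusted p = 5.1e-12), POLA2 (-0.63), CDC25A (-0.60), CDC6 and MCM10 (-0.49 each), CDC7, TYMS, RPA2, FEN1, RRM1, GMNN, GINS1, PCNA, PRIM1, CLSPN, CHAF1B and CHAF1A. Higher in siLong1 were POLA1 (0.71, SE 0.05, adjusted p = 2.3e-14), POLD3 (0.67), TK1 (0.66), MCM5 (0.64), MCM2 and MCM3 (0.52 each), DUT, POLE, POLD1, RFC5, LIG1, RFC4, DNMT1, CCNE1, ORC1, RRM2, RPA3, DBF4, RFC2, CDT1, TICRR and MCM4. Partners within 1 complex went opposite ways, as POLA1 and POLA2 of polymerase alpha did. The S-phase entry class sat lower in siLong1 (mean log2 deviations of -0.407 and -0.466) than in the libraries labelled siLong2 (-0.183 and -0.199), and the polymerase and primase class sat higher in siLong1 (-0.182 and -0.226 beside -0.398 and -0.424).

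For 5 members the siLong sequences moved in opposite directions against siControl. How many of all tested genes did so was not counted, and 26.7% were called higher and 27.0% lower in siLong1 against siLong2. MCM2 rose by 0.21 in siLong1 and fell by 0.31 in the libraries labelled siLong2, and the difference of 0.52 had an adjusted p of 4.1e-13. MCM3 rose by 0.36 and fell by 0.16, and the difference of 0.52 had an adjusted p of 1.1e-13. These are subunits of 1 ring. MCM5 changed by 0.17 and -0.47 (difference 0.64, adjusted p = 4.7e-16), POLD3 by 0.31 and -0.36 (0.67, adjusted p = 1.8e-10) and TK1 by 0.15 and -0.52 (0.66, adjusted p = 7.7e-16). Against mock the siLong1 changes of MCM2, MCM3, MCM5 and POLD3 were -0.027, -0.00022, -0.049 and 0.13, and none of these 4 passed the test, with adjusted p-values of 0.61, 1, 0.3 and 0.081.

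**Figure D4:**
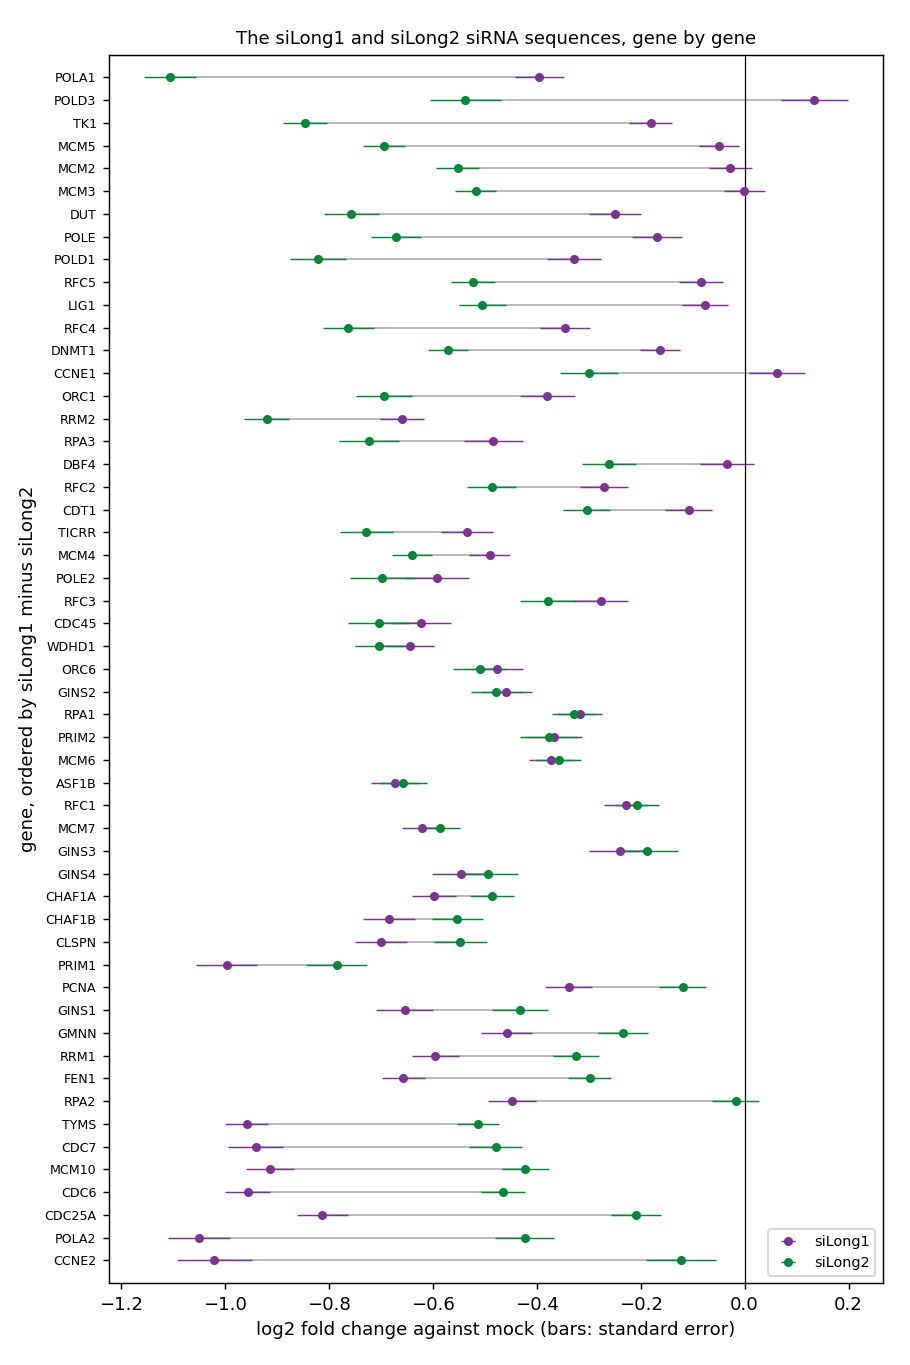
Log2 fold change against mock of each of the 53 genes for siLong1 (purple) and siLong2 (green) with standard errors, ordered by their difference. Genes at the top, such as POLA1 (-0.39 and -1.10), fell more with siLong2, and genes at the bottom, such as CCNE2 (-1.02 and -0.12), had the lower value with siLong1.

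The siTotal sequences also differed from each other. In siTotal1 against siTotal2, 5 were higher and 15 lower in siTotal1, where 23.3% of all tested genes were called higher and 20.6% lower. The share of members called higher was below that of all tested genes, and the share called lower was above it. With both directions counted, members were called less often than all tested genes, so the difference was not particular to them. PCNA had the largest difference, 0.48 higher in siTotal1 (SE 0.05, adjusted p = 1.3e-10), followed by GINS1 (0.39, adjusted p = 2.9e-07) and POLA1, which was lower (-0.34, adjusted p = 2.6e-07). In siTotal2, PCNA was at the level of siControl (-0.039 against it, adjusted p = 0.52) and POLA1 at that of mock (-0.026, adjusted p = 0.74), while siTotal1 held PCNA near mock (-0.098, adjusted p = 0.083) and POLA1 near siControl (-0.058, adjusted p = 0.36). The replicates of siTotal1 were the least alike, with a median coefficient of variation of 4.68% over the members against 1.70% in mock. The counts of higher and lower members moved when 1 siTotal library was left out, as did those over all tested genes.

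RefSeq promoters, from 250 bases before to 50 after the transcription start, were available for 47 of the 54 listed genes, in 64 windows. Those of RPA2, RPA3, POLD3, CCNE2, MCM5, GINS4 and MCM4 were not matched. The word CCAAT or its reverse complement ATTGG, stood in 34 of 64 windows (53.1%, 27 genes), beside 34.5% of the promoters of all tested genes. The E2F words TTTCCCGC and TTTGGCGC, or their reverse complements GCGGGAAA and GCGCCAAA, stood in 21 of 64 (32.8%, 21 genes), beside 3.24%. Both strands were searched, and overlaps between the kinds of word were not removed. Between 120 and 40 bases before the start the shares were 34.4% and 9.38%, beside 18.7% and 0.865%. Among the tested members with a promoter, the 26 with a CCAAT word had a median log2 change of -0.52 in siLong against mock, and the 20 without had -0.43. For the E2F words the medians were -0.49 for the 20 with and -0.52 for the 26 without. In siTotal against mock the medians were -0.10 with and -0.09 without a CCAAT word, and -0.15 with and -0.041 without an E2F word. The ranges overlapped in each case, and these values are a description with no test.

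Another 54 genes of the same pathways, which are not members of the set, were read in the same way, and all 54 were tested. In siLong against mock 40 fell and 6 rose, where 26.4% of all tested genes were called lower and 24.4% higher, with a median of -0.36. The 3 lowest were E2F1, an activator of the G1/S gene wave (-0.73, SE 0.05, adjusted p = 2.7e-15), TIMELESS, a fork protection protein (-0.70), and EXO1, an exonuclease of repair (-0.70). E2F1 measured 43.8 and 44.97 CPM in mock, 45.9 and 43.1 in siControl, 33.6 and 35.0 in siTotal1, 41.1 and 40.1 in siTotal2, 30.5 and 29.8 in siLong1 and 22.7 and 24.6 in those labelled siLong2. Its siLong libraries were the lowest, and its siTotal1 and siTotal2 libraries all lay below both controls. The 3 highest were CDKN1A (1.28), RRM2B (0.63) and CCND1 (0.50). CDKN1A, which encodes the CDK inhibitor p21, measured 284 and 305 CPM in mock, 328 and 334 in siControl, 355 and 353 in siTotal1, 415 and 389 in siTotal2, 504 and 515 in siLong1 and 995 and 1010.0 in those labelled siLong2. It was higher in all 8 libraries with an NFYA siRNA than in the 4 controls, and highest in those labelled siLong2. RRM2B, the ribonucleotide reductase subunit used outside S phase, rose while its S-phase counterpart RRM2 fell. CCND1, cyclin D1, averaged 839.8 CPM in siTotal1 and 484 CPM in siTotal2, on either side of both controls. ORC4, SAMHD1 and RB1 were the other 3 that rose. In siTotal against mock 10 rose and 15 fell, where 16.6% of all tested genes were called higher and 14.2% lower. Against siControl 20 rose and 16 fell, where 22.0% were called higher and 22.2% lower.

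Per kilobase of exon, levels of the members spanned from 5.31 CPM per kb for POLD3 to 209.5 for PCNA, as means over the 12 libraries. PCNA was followed by TK1 (162.2), TYMS (111.8), MCM7 (108.3), MCM3 (108.1) and RRM2 (94.0). The low end held POLD3, GINS3 (6.35), GINS4 (6.59), POLA2 (7.11) and TICRR (7.55). The ring subunits lay between 31.7 (MCM5) and 108.3 (MCM7), and the GINS subunits between 6.35 (GINS3) and 26.8 (GINS2). Lengths are of GENCODE 29 gene models, in which genes with many minor transcripts appear longer and their levels lower.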

How the data were processed

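Polyadenylated RNA of 12 HCT116 cultures was sequenced from stranded libraries, in 6 groups of 2. The deposited table holds unnormalized read counts, 1 row per Ensembl gene and 1 column per library, and 0 columns of other samples. The submitters' processing notes name STAR 2.4.0f1, featureCounts and hg19. No annotation release, strand option, read filter or featureCounts version was found, these being not given in the sources used here. Groups and replicate numbers came from the sample titles.

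Current symbols were found for 52181 of 63677 identifiers, and positions and exon lengths are those of GENCODE 29 on GRCh38, matched by identifier. Genes were filtered with filterByExpr (minimum count 10, minimum total 15), scaled with TMM and modelled by group with edgeR's robust quasi-likelihood method (edgeR 4.0.16 in R 4.3.3), which left 6 residual degrees of freedom and gave a common coefficient of biological variation of 3.57%. A mean such as siLong averages its 2 siRNA groups. Benjamini-Hochberg adjustment of p-values ran over 17730 genes, with fold changes given as log2. CPM used the TMM-scaled library sizes, except for the cell type markers, where library totals were used. No pair of replicates agreed within counting noise (chi-square of 1.87 to 7.9 per degree of freedom). In simulated counts for siLong against mock (17730 genes, 50 changed at each size) the test recovered 68% of genes changed 1.2-fold and 100% of those changed 1.5-fold, 2-fold and 4-fold, and 10 of 194 calls were false.

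Members given with every library's value had the largest or smallest change of their class in siLong against mock, opposite calls against the controls, or 1 of the 3 largest differences between siRNA sequences to 1 target. The members, lists and rules were chosen with earlier results of these data known. Alternatives were other scalings, DESeq2 1.42.0, no filter, only the compared groups, a block by replicate number, joined controls, siRNA sequences as replicates, and each library left out.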

Additional observations from a re-analysis of the deposited data

Results flagged for a closer look

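The effects of the siRNA families on these genes differed in the direct test: 50 members were higher in siTotal than in siLong and 1 was lower, where 28.1% of all tested genes were called higher and 25.3% lower. When a replicate was an siRNA sequence rather than a library, the counts were 0 and 0 by edgeR (25 and 0 before adjustment). By DESeq2 they were 3 and 0. Over all genes they were 0 and 0 of 19088 by edgeR (934 and 782 before adjustment) and 107 and 66 of 13605 by DESeq2. Sequences to the same target differed as well. Between siTotal1 and siTotal2, 5 of 53 members were higher and 15 lower in siTotal1. Of all tested genes, 23.3% were called higher and 20.6% lower. With both directions counted, members were called less often than all tested genes, so this difference was not particular to them. Between siLong1 and the libraries labelled siLong2, 22 were higher and 17 lower in siLong1, where 26.7% of all tested genes were called higher and 27.0% lower.

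Against siControl, 5 members moved up in siLong1 and down in the libraries labelled siLong2, and the test of the difference between the sequences passed for each. The same count over all tested genes was not made. On the log2 scale siLong1 minus siLong2 was 0.52 for MCM2, 0.52 for MCM3 and 0.64 for MCM5, all subunits of the replicative helicase, 0.67 for POLD3, a subunit of polymerase delta, and 0.66 for TK1, thymidine kinase. Counts of NFYA went against the siLong2 label, and its part in these differences was not tested.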

How the results depend on the processing

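All 53 members stayed lower in siLong than in mock under every alternative run for that comparison, but 52 or 53 passed the test, with CCNE1 or DBF4 lost. Joining mock and siControl as 1 control group gave 0 members higher and 4 lower in siTotal and 0 higher and 44 lower in siLong. Of all tested genes, 7.88% were higher and 7.18% lower in siTotal, and 17.5% and 20.8% in siLong. With sequences as replicates, edgeR called 0 members higher and 0 lower in siTotal, in siLong and in siTotal against siLong. Of all 19088 genes it called 0 and 0, 1 and 0, and 0 and 0, in that order. DESeq2, added after the data were seen, called 0 and 0, 0 and 9, and 3 and 0 members. Over all genes it called 6 and 1 of 16355, 166 and 140 of 15667, and 107 and 66 of 13605. The median of the members in siTotal against siControl was -0.0071 with joined controls. With sequences as replicates it was -0.0072 with edgeR and -0.0076 with DESeq2. In these 3 settings, in that order, changes against siControl turned negative in siTotal for CDC7 (-0.050, -0.051, -0.052), MCM4 (-0.032, -0.030, -0.031), MCM6 (-0.013, -0.013, -0.014), MCM7 (-0.025, -0.027, -0.027), PCNA (-0.094, -0.074, -0.074), POLA1 (-0.051, -0.041, -0.041) and RFC5 (-0.033, -0.026, -0.027), and in siLong for GINS1 (-0.18, -0.17, -0.16), LIG1 (-0.054, -0.038, -0.030), MCM3 (-0.090, -0.066, -0.058) and RFC5 (-0.086, -0.069, -0.061). These settings use mock as a control too and, for sequences, fewer replicates. The 1 member higher in siTotal against mock became 0 with DESeq2, DESeq2 size factors, no low-count filter or only the compared groups. In siTotal1 against siTotal2, scaling by library size only gave 3 members higher and 25 lower. Over all 17730 tested genes it gave 3260 higher and 4403 lower, beside 4124 and 3651 in the main fit. No filter gave 9 members lower, and 3437 of 33909 genes. The narrow promoter window gave 34.4% and 9.38%; the cause of the other shifts was not tested.

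Leaving out 1 library at a time, the counts of members higher and lower ran from 16 to 28 and 6 to 10 in siTotal against siControl, 0 to 2 and 17 to 27 in siTotal against mock, 4 to 5 and 42 to 44 in siLong against siControl, 0 to 0 and 52 to 53 in siLong against mock, 49 to 50 and 1 to 1 in siTotal against siLong, 23 to 33 and 4 to 6 in mock against siControl, 3 to 8 and 7 to 22 in siTotal1 against siTotal2, and 20 to 22 and 14 to 17 in siLong1 against siLong2. Calls over all tested genes also moved between these fits, and whether the ranges are particular to the members was not tested. Members not overlapping with the controls ran from 4 to 7 below and 0 to 5 above in siTotal and from 35 to 38 below and 0 to 0 above in siLong. The same non-overlap ranges over all tested genes were not counted. A replicate block left the calls of all 424 changes of members as they were (53 lower in siLong against mock); same-numbered libraries did not deviate together (15 correlations from -0.085 to 0.099), so the numbers were not taken as pairs. In counts simulated for siLong against mock, 68% of 1.2-fold differences were found, so differences near that size can be missed. Fewer genes were changed in the simulation than were called in the data, and the other comparisons were not simulated.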
